A study of Mus musculus with 20 samples.

Results

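The effect described here is what crotonic acid did to gene expression on average over days 20, 24 and 28 of chemical reprogramming. It was read from 12 of the 20 samples of the series, the 6 libraries of cultures given the acid and the 6 untreated libraries of the same days, with 2 libraries for each of 6 groups. The libraries were picked by their labels. That choice and the gene lists were made with earlier results of these data known. The treated-minus-untreated difference was estimated within each day and then averaged, with day and replicate number in the model. All 12 libraries came from B6DBA mouse cells on the way from embryonic fibroblasts to chemically induced pluripotent stem (CiPS) cells, a conversion driven by small molecules without added transcription factor genes. The untreated groups were cells of days 20, 24 and 28. The treated groups were cells of the same days whose induction medium held crotonic acid at 6 to 8 mM, adjusted to pH 7, without a break from day 16, which gives 4, 8 and 12 days in the acid. Both arms shared the induction medium and the strain. The stated purpose was to learn how the acid promotes CiPS formation. The labels did not say which cells each library pooled, nor whether replicates were separate cultures. The p-values therefore set the difference between arms only against the spread of these libraries that the model leaves. Part of that spread may be technical.

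Crotonic acid is a short unsaturated fatty acid. Cells can couple it to coenzyme A, and crotonyl-CoA is a donor for histone crotonylation, a lysine mark found at active genes that acetyltransferases can write and deacetylases can remove. In chemical reprogramming, fibroblasts first form an epithelial intermediate that resembles extraembryonic endoderm, the lineage that lines the yolk sac, and pluripotent cells arise from it later. NRF2 is a transcription factor that switches on antioxidant and detoxification genes when electrophiles modify its partner KEAP1, and ATF4 is a factor of amino acid and endoplasmic reticulum stress that drives amino acid transport and synthesis genes.

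The libraries held 17475848 to 24015100 counted reads. Levels are counts scaled to library size (CPM), made comparable between libraries by TMM factors. The labelled identity was read from marker genes. Regulators of the endoderm-like intermediate were high in both arms, with Gata4 at 458 to 950 CPM in untreated and 305 to 716 CPM in treated libraries and Sox17 at 335 to 611 and 261 to 561 CPM. Pluripotency markers differed. Pou5f1, which encodes OCT4, was low in the early libraries and present in the late ones, from 0.0963 to 15.5 CPM untreated and from 0 to 22.6 CPM treated. Nanog stayed at 0.541 to 1.3 CPM untreated and 0.555 to 1.26 CPM treated. Zfp42 ranged from 0.481 to 13.6 and from 0.322 to 18.2 CPM, and Dppa5a from 10.6 to 228 and from 9.48 to 221 CPM. The fibroblast collagen gene Col1a1 was still at 174 to 742 CPM. Transcripts of liver stood out in 2 treated libraries: albumin (Alb) had 566 counts in day 20 with crotonic acid replicate 2 and 1497 counts in day 28 with crotonic acid replicate 1, and 0 counts in the other 10 libraries. In both, 11 of 20 hepatocyte genes were higher than in any other library. Counts without both libraries are given beside most gene groups described here whose count they moved by more than 1.5 times, and beside some others.

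Crotonic acid changed 2317 of 17178 tested genes on average over the days, which is 13.5% of them, at an adjusted p under 0.05 in edgeR's quasi-likelihood test. Of these, 1325 rose (7.71%) and 992 fell (5.77%). The counts of gene lists below are to be read beside these shares. Rises were larger than falls: 208 genes rose and 93 fell by more than 2-fold, and the median log2 fold change was 0.59 among the genes that rose and -0.38 among those that fell, against -0.01 over all genes tested. In 1137 of the rising and 838 of the falling genes, all 6 treated libraries differed the same way from the untreated library of the same day and replicate number. The 6 treated libraries lay wholly apart from the 6 untreated ones for 131 genes that rose and 80 that fell, and such separation was seen in 228 of all genes tested (1.33%).

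These counts lean on the replicate number in the model. Libraries with the same number deviated together, and without that term 245 genes rose and 142 fell, all of them among the 2317. Without both libraries that held liver transcripts, 911 rose and 483 fell. Leaving out single libraries moved a count by more than 1.5 times in several cases. Without day 20 replicate 1, 812 rose and 539 fell; without day 20 replicate 2, 833 rose; without day 20 with crotonic acid replicate 1, 874 rose and 644 fell. Without day 24 replicate 2, 743 rose and 520 fell. The falls numbered 648 without day 20 with crotonic acid replicate 2, 630 without day 24 with crotonic acid replicate 1 and 657 without day 28 with crotonic acid replicate 2. Leaving out whole days gave 598 rises and 480 falls without day 20, 408 and 242 without day 24, and 1669 and 1061 without day 28. No gene called in the fit of all 12 libraries had the opposite sign in any of these fits. These fits reused libraries that had called the genes, so agreement of sign was largely fixed in advance.

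Whether the effect was common to the days was asked in a test of its difference between them. edgeR called 0 of 17178 genes in that test, with 472 at an unadjusted p under 0.05 and a smallest adjusted p of 0.765. limma-voom called 0, DESeq2 called 6 and edgeR without a filter on low counts called 17, and leaving out day 28 replicate 1 or day 28 replicate 2 gave 24 and 1. A test that calls few genes does not show that the days were alike. Among the 30 genes with the largest averaged changes the effect was smallest at day 20 in 25. Calcb, for instance, had log2 fold changes of 1.4, 2.34 and 2.49 at days 20, 24 and 28, whereas Ecel1 had 1.75, 1.77 and 1.64.

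**Figure D1:**
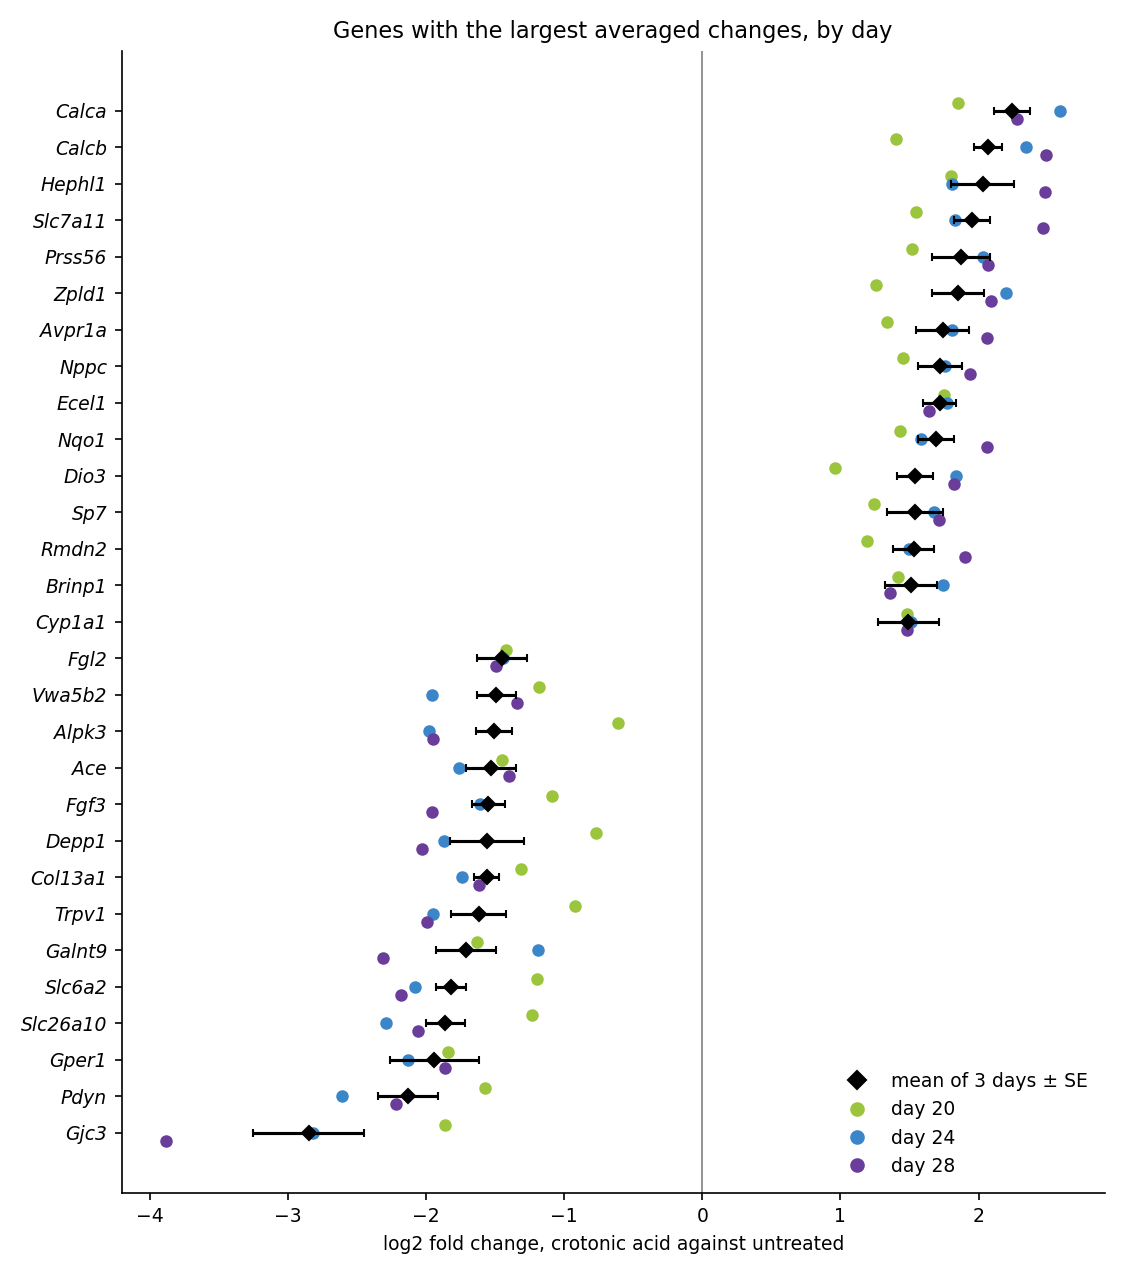
Each row is 1 of 29 genes among the 30 with the largest averaged changes, and the horizontal axis is the log2 fold change of crotonic acid against untreated cultures: black diamonds show the mean of 3 days with its standard error, coloured circles the separate days. All circles of a gene lie on the same side of 0, which follows from choosing genes with the same sign in all 6 pairs. In 24 of the 29 genes day 20 lies nearest to 0.

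The same question was put to libraries that had no part in calling a gene. Genes were called on 2 days and their change was then read in the 4 libraries of the third day. On days 24 and 28, 1016 genes were called (6.42% of those tested), and 963 of them (94.8%) changed in the same direction at day 20. There, 96.2% of 549 rising genes were above 0, compared with 48.9% of all genes. Of 467 falling genes 93.1% were below 0, compared with 51.1% of all genes. The size was smaller at day 20, with a median log2 fold change of 0.55 for genes that had risen by a median of 0.77, and of -0.33 for genes that had fallen by a median of -0.58. Days 20 and 28 called 643 genes (4.04%), of which 641 (99.7%) had the same direction at day 24. Of all genes 49.3% were above 0 and 50.7% below 0 at day 24. Days 20 and 24 called 2698 genes (17.0%), of which 2568 (95.2%) had the same direction at day 28. There, 49.8% of all genes were above 0 and 50.2% below 0.

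**Figure D2:**
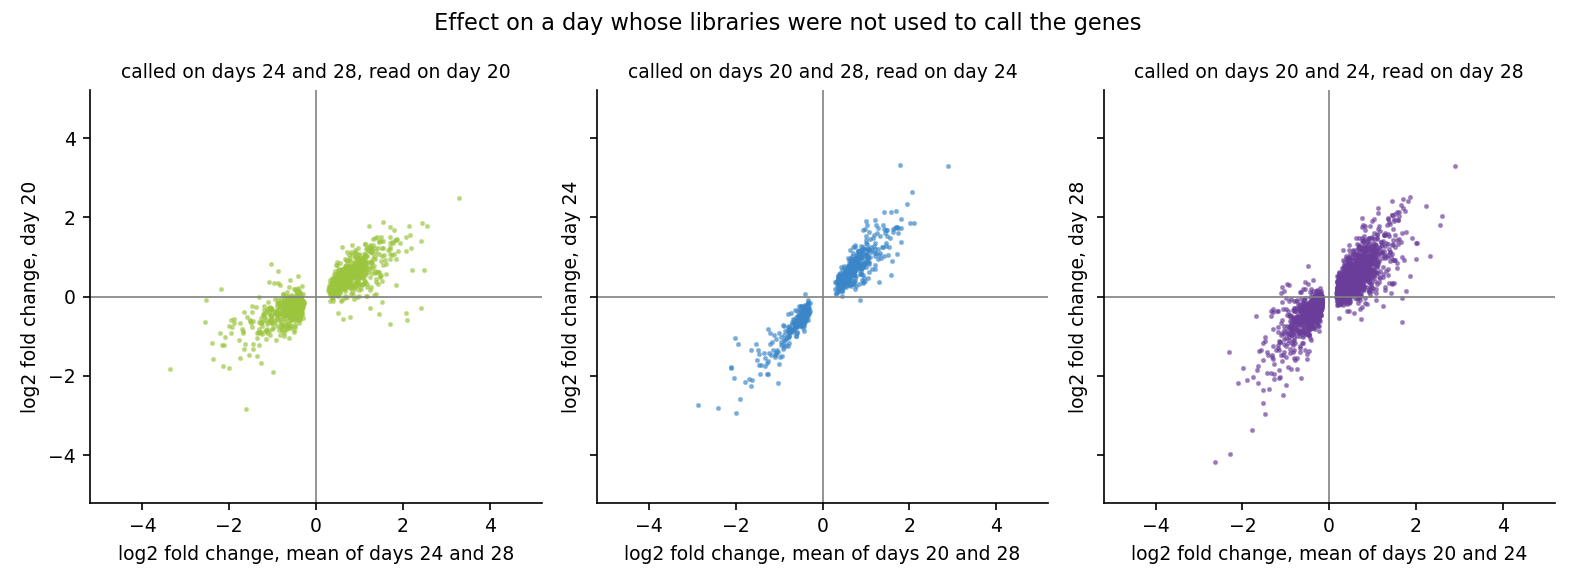
Each point is a gene called on 2 days, with its averaged log2 fold change on those days on the horizontal axis and its log2 fold change on the remaining day, whose libraries were not used to call it, on the vertical axis; the 3 panels hold out day 20, 24 and 28. Points lie mostly at the lower left and upper right, where the signs match, which hold 94.8%, 99.7% and 95.2% of the genes.

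The largest rises were led by Calca and Calcb, which lie side by side and encode calcitonin gene-related peptides. Calca stood at 6.17 and 3.32 CPM in the untreated replicates of day 20, 2.34 and 1.28 at day 24 and 1.43 and 0.566 at day 28. With the acid it stood at 23.2 and 11.4 CPM at day 20, 17.1 and 5.9 at day 24 and 6.44 and 3.12 at day 28. It was higher with the acid in all 6 pairs and fell with time in both arms, so the arms overlapped across days. Its averaged log2 fold change was 2.24 ± 0.13 (standard error; adjusted p = 1.07e-05), a 4.72-fold rise. Calcb ranged from 3.72 CPM over a median of 10.3 to 30.4 CPM untreated and from 24.8 over 50 to 82.1 CPM treated, a rise of 2.07 ± 0.1 on the log2 scale (adjusted p = 3.02e-06). Among untreated libraries only day 20 replicate 1 reached into the treated range.

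Members of the calcitonin family, whose peptides signal through the receptor Calcrl and accessory proteins called RAMPs, went both ways. Of 9 tested members 3 rose, with Calca and Calcb among them, and 3 fell. That is 66.7% of the list, beside 13.5% of all genes tested. Ramp3 rose by 0.8 ± 0.07 (adjusted p = 0.000107). Ramp1, the accessory protein that gives Calcrl its affinity for calcitonin gene-related peptide, fell by 0.52 ± 0.08 on the log2 scale, and Ramp2, which gives it affinity for adrenomedullin, fell by 0.52 ± 0.11. The ligand gene Adm2 fell by 1.7 ± 0.35 from low levels, 0.334 to 2.38 CPM untreated and 0.046 to 1.01 CPM treated. Calcrl itself was at 0.566 to 2.96 CPM untreated and 0.652 to 4.55 CPM treated (adjusted p = 0.445). Each of the 6 calls held when any 1 library was left out; without the replicate number in the model the call of Ramp2 was lost, and without day 20 only 1 member fell.

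Further large rises came from genes with varied roles. Ecel1, a neuronal endopeptidase gene, rose 3.29-fold (log2 1.72 ± 0.12, adjusted p = 3.82e-05), from 8.06 over a median of 9.75 to 15.6 CPM untreated against 26.4 over 33.6 to 56.5 CPM treated, with no overlap. Dio3, the deiodinase that inactivates thyroid hormone, was at 101 and 126 CPM in untreated libraries of day 20, 34.7 and 42.8 at day 24 and 14.9 and 11.8 at day 28. With the acid it was at 201 and 238, 95.1 and 189, and 47 and 47.2 CPM on the same days. Dio3 therefore declined with time in both arms and was higher with the acid at every day, and its averaged log2 fold change was 1.54 ± 0.13 (adjusted p = 6.52e-05). Nppc, which encodes C-type natriuretic peptide, rose by 1.72 ± 0.16 and Avpr1a, a vasopressin receptor gene, by 1.74 ± 0.19. The ferroxidase homologue Hephl1 rose by 2.03 ± 0.23, the serine protease gene Prss56 by 1.87 ± 0.21 and the osteoblast factor Sp7 by 1.54 ± 0.2. Cyp1a1, a target of the aryl hydrocarbon receptor, rose by 1.49 ± 0.22 from levels that spanned 0.265 to 9.63 CPM untreated and 1.01 to 32.6 CPM treated. Cyp1b1, another target of that receptor, rose by 0.95 ± 0.09 without overlap, from 132 to 414 CPM untreated to 417 to 687 CPM treated, whereas Tiparp, also a target, did not pass (log2 -0.01 ± 0.08, adjusted p = 0.966).

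Among the largest falls, Gjc3, a connexin gene of myelinating glia, fell 7.23-fold (log2 -2.85 ± 0.4, adjusted p = 0.00128); its untreated libraries were at 8.46, 6.5, 7.9, 7.03, 8.26 and 0.707 CPM and its treated libraries at 2.46 to 0.0931 CPM, so that only day 28 replicate 2 reached into the treated range. Slc6a2, the noradrenaline transporter gene, ranged from 43 over a median of 96.1 to 142 CPM untreated and from 21.7 over 24.3 to 32.7 CPM treated. These ranges did not overlap, and the fall of 1.82 ± 0.11 on the log2 scale was 3.53-fold (adjusted p = 1.33e-05). Col13a1, a transmembrane collagen gene, fell 2.94-fold (adjusted p = 1.07e-05), from 15.8 to 35.9 CPM untreated to 5.74 to 11.9 CPM treated, again without overlap. Pdyn, the precursor of dynorphin peptides, fell by 2.13 ± 0.22, Gper1, a membrane oestrogen receptor gene, by 1.94 ± 0.32, and Ace, the angiotensin-converting enzyme gene, by 1.53 ± 0.18. Trpv1, the capsaicin-sensitive cation channel, fell by 1.62 ± 0.2.

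All 30 of these largest changes kept their call when any 1 library was left out and without both libraries that held liver transcripts. Without the replicate number in the model, 12 of the 15 rises and 14 of the 15 falls passed; Avpr1a and Cyp1a1, described above, and the gene Zpld1 lost the call among the rises, and Depp1 among the falls. Only 5 rises and 5 falls had arms that did not overlap.

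**Figure D3:**
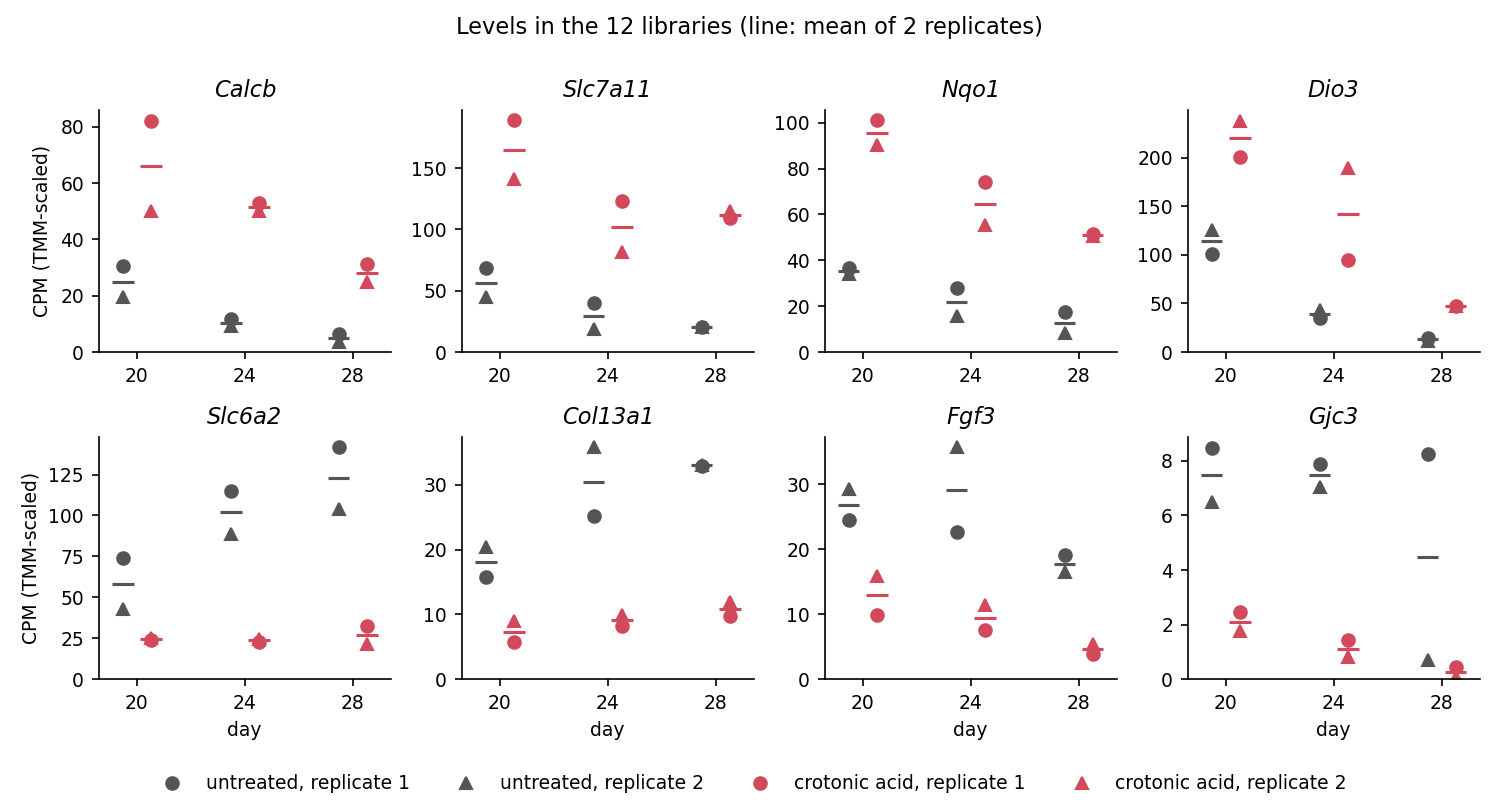
Levels of 8 genes in CPM (vertical axes, starting at 0) by day for untreated (grey) and crotonic acid (red) cultures, with circles for replicate 1, triangles for replicate 2 and lines for the mean of both. Treated points of Calcb, Slc7a11, Nqo1 and Dio3 lie above and those of Slc6a2, Col13a1, Fgf3 and Gjc3 below the untreated points of their day, while the levels of both arms drift with time.

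Targets of NRF2 rose as a group. Of 26 tested NRF2 targets, 12 rose and none fell, against 7.71% of all genes that rose; 24 of the 26 had a log2 fold change above 0 and the median was 0.21. Slc7a11, which imports cystine for glutathione synthesis, ranged from 18.7 over a median of 30 to 68.7 CPM untreated and from 81.8 over 119 to 189 CPM treated. Every treated library was above every untreated one, and the rise was 3.88-fold (log2 1.95 ± 0.13, adjusted p = 2.14e-05). Nqo1, a quinone reductase gene, ranged from 8.25 over 22.6 to 36.7 CPM untreated and from 50.6 over 64.7 to 101 CPM treated. It too had no overlap, and it rose 3.23-fold (adjusted p = 4.03e-05). The glutathione transferase gene Gsta4 rose by 0.8 ± 0.09 without overlap, and Gsta3 rose by 0.85 ± 0.14 from 1.32 to 4.67 CPM untreated to 1.88 to 7.21 CPM treated. Reads of Gsta genes with near-identical copies, such as Gsta1 and Gsta2, cannot be assigned safely.

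Beyond these, the rises of NRF2 targets were small. Ephx1, an epoxide hydrolase gene, rose by 0.47 ± 0.07, G6pdx, the first enzyme of the pentose phosphate pathway, by 0.28 ± 0.06, and Gclm, the modifier subunit of glutathione synthesis, by 0.25 ± 0.06. A pair of widely used indicators did not pass: Hmox1, the haem oxygenase gene, was at 48 to 95.8 CPM untreated and 50.9 to 116 CPM treated (log2 0.11 ± 0.08, adjusted p = 0.449), and Gclc, the catalytic subunit of glutathione synthesis, had 0.16 ± 0.08 (adjusted p = 0.199). The count of 12 fell to 7 without day 20 replicate 1, to 7 without day 20 with crotonic acid replicate 1, to 6 without day 24 replicate 1, to 5 without day 20 and to 6 without day 24. It was 3 without the replicate number in the model, and 10 without both libraries that held liver transcripts. Gclm was among the members that lost the call without single libraries.

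Targets of ATF4 moved the other way. Of 24 tested ATF4 targets 12 fell and none rose, against 5.77% of all genes that fell, and the median log2 fold change was -0.27. Atf3, a stress-induced factor, ranged from 30 over a median of 31.2 to 37 CPM untreated and from 20.4 over 22.6 to 26 CPM treated. The arms did not overlap, and it fell by 0.53 ± 0.07 on the log2 scale (adjusted p = 0.000696). Nupr1, a stress-induced chromatin protein gene, fell by 0.97 ± 0.15 (adjusted p = 0.00182), from 9.21 to 24 CPM untreated to 5.15 to 10.3 CPM treated. Ddit3, which encodes the stress factor CHOP, fell by 0.52 ± 0.09 and Atf5 by 0.4 ± 0.06. Psat1 of serine synthesis fell by 0.35 ± 0.07 and Mthfd2 of mitochondrial folate metabolism by 0.41 ± 0.08, both without overlap of the arms. The amino acid transporter gene Slc7a5 fell by 0.39 ± 0.08. Chac1, a glutathione-degrading enzyme gene, fell by 0.96 ± 0.24 (adjusted p = 0.0237), a call that was lost without day 20 replicate 2, day 20 with crotonic acid replicate 1, day 24 replicate 2 or day 24 with crotonic acid replicate 2. Asns, asparagine synthetase, did not pass (log2 0.03 ± 0.09, adjusted p = 0.849), and Slc7a11, a target of both factors, was among the largest rises but was counted in the NRF2 list alone.

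The count of 12 falling ATF4 targets became 7 without day 20 replicate 2, without day 20 with crotonic acid replicate 1 and without day 24 replicate 2, and 4 without day 24. It was 3 without the replicate number in the model and 11 without both libraries that held liver transcripts. The count of rising ATF4 targets, 0 here, was 3 without day 28 replicate 1, 1 without day 24 with crotonic acid replicate 1, 2 without day 28, 2 with library totals in place of TMM factors and 1 in DESeq2.

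**Figure D4:**
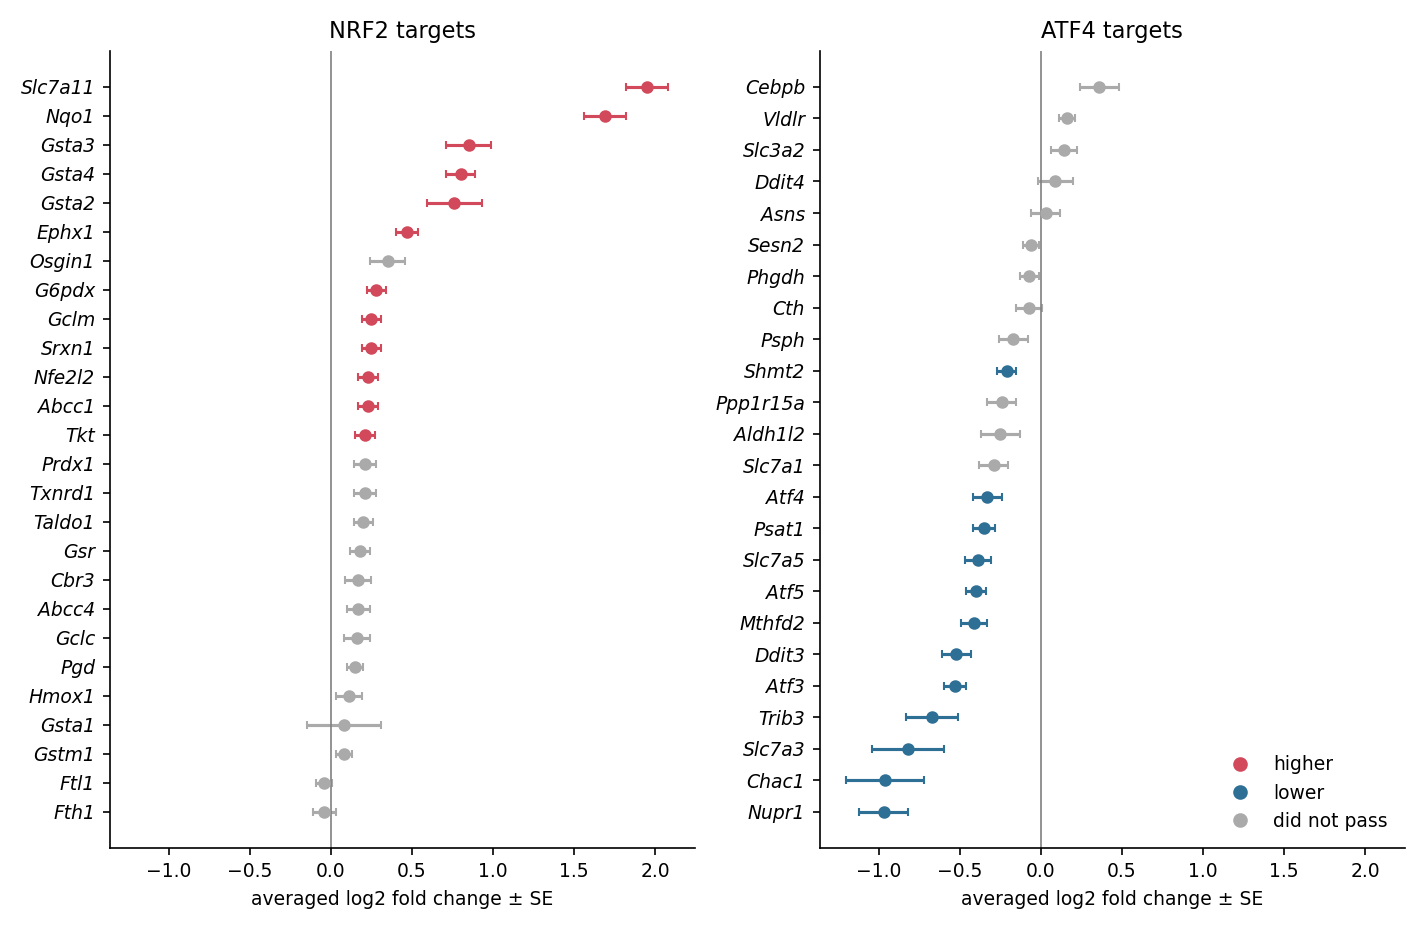
Averaged log2 fold change of crotonic acid against untreated cultures (horizontal axis, with standard error) for the 26 tested NRF2 targets on the left and the 24 tested ATF4 targets on the right, in red where a gene rose, blue where it fell and grey where it did not pass. The NRF2 panel has 12 red and no blue points, led by Slc7a11 and Nqo1, and the ATF4 panel has 12 blue and no red points.

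These lists moved in opposite directions and Slc7a11 belongs to both regulators. For that reason promoters of 4 called members with a match to a shortened ATF4 motif are shown. They are the 250 bases before the annotated gene start, from RefSeq on GRCm38.p6, written 5′ to 3′ on the gene's own strand: Slc7a11 at chr3:50443614-50443863 (minus strand), Atf3 at chr1:191183334-191183583 (minus strand), Chac1 at chr2:119350992-119351241 (plus strand) and Nupr1 at chr7:126625471-126625720 (minus strand). Capitals mark matches to TGATGNAA on either strand, so a match to the opposite strand appears as its reverse complement.
Slc7a11: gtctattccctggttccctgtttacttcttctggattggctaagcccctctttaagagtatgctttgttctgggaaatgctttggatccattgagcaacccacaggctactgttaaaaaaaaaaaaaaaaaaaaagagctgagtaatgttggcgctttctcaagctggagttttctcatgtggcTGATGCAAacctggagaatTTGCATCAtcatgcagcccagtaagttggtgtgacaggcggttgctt
Atf3: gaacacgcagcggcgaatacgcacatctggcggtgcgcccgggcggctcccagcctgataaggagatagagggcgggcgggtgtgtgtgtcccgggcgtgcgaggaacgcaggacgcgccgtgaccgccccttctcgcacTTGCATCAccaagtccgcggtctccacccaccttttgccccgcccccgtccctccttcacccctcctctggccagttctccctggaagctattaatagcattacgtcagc
Chac1: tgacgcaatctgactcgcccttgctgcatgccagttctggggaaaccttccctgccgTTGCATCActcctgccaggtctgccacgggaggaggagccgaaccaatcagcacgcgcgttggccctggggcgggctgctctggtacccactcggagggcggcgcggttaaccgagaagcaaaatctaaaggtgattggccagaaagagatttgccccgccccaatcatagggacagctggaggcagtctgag
Nupr1: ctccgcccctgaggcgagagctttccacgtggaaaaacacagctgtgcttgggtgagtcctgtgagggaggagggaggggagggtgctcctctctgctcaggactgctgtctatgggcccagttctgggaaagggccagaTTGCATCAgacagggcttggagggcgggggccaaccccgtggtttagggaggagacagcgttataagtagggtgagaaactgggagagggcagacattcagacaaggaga

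Slc7a11 held 2 matches, which began 66 and 47 bases before the gene start, 1 on each strand, while Atf3 and Nupr1 held 1 match each, 110 bases before it, and Chac1 1 match 193 bases before it. The motif was found in 3.45% of 32851 promoters of this length and in 2.43% of those of the genes tested, in 1.93% of those of genes that rose and 4.83% of those of genes that fell. Among ATF4 targets with a promoter in the table it was found in 5 of 20, and among NRF2 targets in 1 of 21, which was Slc7a11. The ATF4 targets with a match that are not shown, Asns and Vldlr, did not pass (log2 0.03 and 0.16). A match describes these letters and is not evidence of binding.

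For NRF2 a shortened antioxidant response element was searched, TGACNNNGC on either strand; overlap between matches of both motifs was not counted. It was found in 10.2% of all promoters, in 13.8% of those of genes tested, in 14.7% of those of genes that rose and 14.1% of those of genes that fell. It was in 7 of 21 NRF2 targets and in 4 of 20 ATF4 targets. Among called members it was in 4 of 10 NRF2 targets and 0 of 10 ATF4 targets. The promoters of 2 targets that rose are shown, Gclm at chr3:122245307-122245556 (plus strand) and Gsta3 at chr1:21240335-21240584 (plus strand), with the match in capitals, 134 and 121 bases before the gene start.
Gclm: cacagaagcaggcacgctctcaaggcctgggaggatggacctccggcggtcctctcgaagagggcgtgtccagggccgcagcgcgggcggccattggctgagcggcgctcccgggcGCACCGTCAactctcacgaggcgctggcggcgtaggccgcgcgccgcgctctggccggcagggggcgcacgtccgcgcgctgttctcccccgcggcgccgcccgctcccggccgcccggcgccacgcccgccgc
Gsta3: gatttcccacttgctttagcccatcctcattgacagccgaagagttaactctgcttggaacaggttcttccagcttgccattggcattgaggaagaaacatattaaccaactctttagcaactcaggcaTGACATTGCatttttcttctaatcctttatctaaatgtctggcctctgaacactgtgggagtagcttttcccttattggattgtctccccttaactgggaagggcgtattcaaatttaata

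No match to TGACNNNGC was marked in these windows for Slc7a11 or Nqo1, which says only that these letters are not within 250 bases of the annotated start.

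Most genes of extraembryonic endoderm, the identity of the intermediate, were lower with the acid. Of 26 tested, 15 fell and none rose, against 5.77% of all genes that fell, and the median log2 fold change was -0.32. By sign, 21 lay below 0 and 5 above. The 5 did not pass: Apob (log2 1.26 ± 0.38, adjusted p = 0.053), Ttr (1.21 ± 1.03), Plat (0.31 ± 0.1), Amn (0.17 ± 0.2) and Cubn (0.15 ± 0.09). Basement membrane genes were among those that fell. Col4a1, a chain of collagen IV, ranged from 4920 over a median of 6950 to 10500 CPM untreated and from 3170 over 4360 to 6160 CPM treated, and it was lower with the acid in all 6 pairs although the arms overlapped (log2 -0.65 ± 0.05, adjusted p = 4.84e-05). Its partner Col4a2 fell by 0.56 ± 0.05, the laminin genes Lama1, Lamb1 and Lamc1 by 0.58 ± 0.07, 0.54 ± 0.05 and 0.49 ± 0.06, and the matrix protein gene Sparc by 0.43 ± 0.06. The endocytic adaptor gene Dab2 was at 243 to 308 CPM untreated and 145 to 180 CPM treated. Its arms were fully apart and it fell by 0.78 ± 0.06 (adjusted p = 4.03e-05).

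Regulators of endoderm were among the falling members as well. Gata6 fell by 0.52 ± 0.07, Foxa2 by 0.43 ± 0.06 and Gata4 by 0.37 ± 0.07, each lower in 6 of 6 pairs, whereas Sox17 (log2 -0.17 ± 0.07, adjusted p = 0.129) and Sall4 (log2 -0.18 ± 0.08, adjusted p = 0.161) did not pass. In cultures of mixed cells, fewer cells of a type and less RNA per cell cannot be told apart. The count of 15 falling members was 6 without the replicate number in the model, 9 without day 24 and 12 without both libraries that held liver transcripts, where 1 rose; 2 rose without day 28 replicate 2, and 1 without day 20 with crotonic acid replicate 1, either treated library of day 28, or day 28; the calls of Gata4, Gata6, Foxa2 and Col4a2 were among those lost without the replicate number.

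A different laminin chain rose: Lama5, which is widespread in epithelia, rose by 0.84 ± 0.07 (adjusted p = 5e-05), from 70.6 to 158 CPM untreated to 138 to 247 CPM treated. It headed the epithelial list, in which 7 of 25 members rose and 1 fell, against 7.71% and 5.77% of all genes tested. Cldn3, a tight junction gene, rose 2.49-fold without overlap of the arms, from 4.77 to 6.97 CPM to 9.75 to 23.5 CPM (log2 1.31 ± 0.18, adjusted p = 0.00105). Cdh1, which encodes E-cadherin, rose by 0.58 ± 0.09, while Epcam did not pass (log2 -0.16 ± 0.06, adjusted p = 0.121) and the keratin gene Krt7 fell by 1.12 ± 0.14. The 7 rises became 4 without day 20 replicate 2 or day 24 replicate 2, 3 without day 20 and 2 without day 24, and 2 without the replicate number in the model. Without both libraries that held liver transcripts 4 epithelial members rose and 2 fell. The falls also numbered 2 without day 20 with crotonic acid replicate 2, day 28 replicate 2 or day 28 with crotonic acid replicate 1, and 3 without day 28. In the trophoblast list 4 of 13 rose and 2 fell, 46.2% of members beside 13.5% of all genes tested. Cdx2, a trophoblast and intestinal factor, rose by 1.21 ± 0.07 (adjusted p = 1.12e-05), from 7.59 to 20.1 CPM untreated to 20.6 to 43.4 CPM treated, and Tfap2c, shared by trophoblast and germ cells, rose by 0.8 ± 0.13; neither had overlapping arms. Without the replicate number 1 member rose, and the call of Cdx2 was lost; without day 24, 2 rose. Only 1 fell without day 20 replicate 1, day 20 with crotonic acid replicate 1, day 24 replicate 2, day 24 with crotonic acid replicate 1, day 28 with crotonic acid replicate 2, day 20 or day 24.

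Signalling genes of early development changed in several pathways. Of 20 Wnt targets and feedback genes 10 rose and none fell, against 7.71% of all genes that rose, with a median of 0.34. Wif1, a secreted Wnt antagonist, rose by 1.68 ± 0.24 from 0.33 to 1.18 CPM to 1.25 to 4.93 CPM without overlap. Notum, an extracellular Wnt deacylase, rose by 0.81 ± 0.07 (adjusted p = 9.52e-05), from 23.7 over a median of 42.1 to 67 CPM untreated to 38.2 over 79.3 to 108 CPM treated. Sp5, a direct Wnt target, rose by 0.59 ± 0.06 and the Wnt effector Tcf7 by 0.41 ± 0.05. Lef1 and Axin2 rose by 0.29 ± 0.07 and 0.2 ± 0.05, and each of these calls was lost without any of 6 single libraries, among them day 20 replicate 2, day 24 replicate 1, day 24 replicate 2 and day 24 with crotonic acid replicate 2 for both genes. The 10 rises were 5 without day 20, 5 without day 24, 8 without both libraries that held liver transcripts and 3 without the replicate number in the model, where Notum, Wif1 and Tcf7 passed.

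Of 20 Nodal and BMP pathway genes 9 rose and 2 fell, 55% beside 13.5% of all genes tested. The median log2 fold change was 0.47. Apela, an embryonic peptide hormone gene, rose 2.43-fold (log2 1.28 ± 0.1, adjusted p = 4.03e-05), from 10.8 over a median of 15.3 to 31.9 CPM untreated to 18.9 over 49.3 to 67.1 CPM treated. Lefty1, a Nodal antagonist, rose by 1.03 ± 0.16 without overlap, while Nodal itself did not pass (log2 0.72 ± 0.26, adjusted p = 0.0977). The BMP-responsive genes Id1 and Id3 rose by 0.88 ± 0.07 and 0.63 ± 0.11, the inhibitory genes Smad6 and Smad7 by 0.8 ± 0.15 and 0.58 ± 0.09, and the secreted BMP antagonist Grem1 by 0.75 ± 0.11. Nog, which encodes the BMP antagonist noggin, fell by 1.09 ± 0.12 (adjusted p = 0.000397), from 24.6 over 58.1 to 105 CPM to 13.9 over 22.4 to 40.7 CPM. Without the replicate number in the model 4 rose and 1 fell; without day 24, 4 rose; and without both libraries that held liver transcripts 10 rose and 2 fell.

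Of 16 FGF ligand, receptor and feedback genes 4 rose and 4 fell, 50% beside 13.5% of all genes tested. The ligand genes Fgf3 and Fgf5 fell by 1.55 ± 0.12 and 1.75 ± 0.26, Fgf3 from 16.5 to 35.7 CPM untreated to 3.89 to 15.9 CPM treated without overlap (adjusted p = 4.19e-05). The receptor gene Fgfr4 fell by 0.44 ± 0.06, whereas Fgfr2 rose by 0.6 ± 0.07 with arms apart, and the feedback or response genes Etv5 and Spry4 rose by 0.46 ± 0.07 and 0.42 ± 0.06. The split was 2 and 2 without the replicate number in the model, 2 rose without day 20, 2 fell without day 24 and 7 rose without day 28. In the retinoic acid list 5 of 15 rose and 2 fell, 46.7% beside 13.5% of all genes tested. The retinaldehyde dehydrogenase genes Aldh1a1 and Aldh1a3 rose by 0.92 ± 0.08 and 0.86 ± 0.14. The binding protein genes Crabp1 and Crabp2 rose by 0.51 ± 0.11 and 0.54 ± 0.11. Of the retinoic acid list 2 rose and none fell without the replicate number in the model, 3 rose without day 20 and 2 without day 24. Its falls numbered 0 without day 24 replicate 2, day 20 or day 24. They numbered 1 without day 20 replicate 1, either treated library of day 20, day 24 with crotonic acid replicate 1, day 28 with crotonic acid replicate 2 or both libraries that held liver transcripts.

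Imprinted genes, expressed from a single parental copy, went both ways, with 7 of 22 higher and 7 lower. That is 63.6% of them, beside 13.5% of all genes tested. On the Dlk1-Dio3 locus Dio3 rose, as described, while its neighbours fell: the growth regulator Dlk1 by 0.85 ± 0.1 (adjusted p = 0.000598), the noncoding RNAs Meg3, Rian and Mirg by 0.49 ± 0.09, 0.36 ± 0.05 and 0.39 ± 0.07, and Rtl1 by 0.45 ± 0.12, a call lost without any of 8 single libraries, without any of the 3 days and without the replicate number in the model. Dlk1 ranged from 116 over a median of 189 to 327 CPM untreated and from 40.1 over 112 to 220 CPM treated, so its arms overlapped. The sources used here do not state whether strand was kept in counting, so overlapping genes such as Rtl1 and its antisense partner cannot be told apart. Elsewhere H19, a noncoding RNA, and its neighbour Igf2, a fetal growth factor gene, rose by 0.82 ± 0.07 and 0.4 ± 0.07, Mest rose by 0.7 ± 0.09, and Phlda2, a restrainer of placental growth, rose by 1.75 ± 0.28 from 0.132 to 0.741 CPM to 0.805 to 1.58 CPM without overlap. The growth inhibitor gene Cdkn1c fell by 0.41 ± 0.09, a call lost without day 24 replicate 2. Without the replicate number in the model 3 rose (Dio3, Phlda2 and Igf2) and none fell; without day 24, 4 fell; and without both libraries that held liver transcripts 5 rose and 5 fell.

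Genes that could handle the acid itself changed in a few places, at shares near that of all genes tested. Of the supply and uptake genes 18.2% were called, and of the crotonylation genes 12.5%, beside 13.5% of all genes. Of 22 genes of short-chain acyl supply and uptake 3 rose and 1 fell, and all 4 calls held when any 1 library was left out. Ffar3, a receptor for short-chain fatty acids, rose 2.25-fold (log2 1.17 ± 0.11, adjusted p = 0.000152), from 0.867 over a median of 3.51 to 10.6 CPM untreated to 1.98 over 8.39 to 24.4 CPM treated; it was higher in all 6 pairs and the arms overlapped. Slc16a1, a monocarboxylate transporter gene, rose by 0.4 ± 0.05 with arms apart, at 81.7 to 111 CPM untreated and 112 to 145 CPM treated. Acss3, a mitochondrial acyl-CoA synthetase gene, rose by 1.03 ± 0.18 and Acsl5, a long-chain acyl-CoA synthetase gene, fell by 0.4 ± 0.07. Without the replicate number Ffar3 and Acsl5 passed. Of 24 writers, readers and erasers of crotonylation, Acss2, which makes acyl-CoA in the cytosol and nucleus, rose by 0.39 ± 0.07 and lost its call without the replicate number. Kat7 and Sirt1 fell by 0.24 ± 0.05 and 0.37 ± 0.09, with the call of Kat7 lost without day 20 replicate 1, day 20 with crotonic acid replicate 1 or day 24 replicate 2 and that of Sirt1 without 7 single libraries; 1 of these falls passed without both libraries that held liver transcripts. Ep300, an acetyltransferase that also writes crotonylation, was at 81.9 to 110 CPM untreated and 88.4 to 112 CPM treated (adjusted p = 0.962), and the deacetylase gene Hdac3 was at 90.2 to 99.6 and 88.2 to 95.8 CPM (adjusted p = 0.558).

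In lipid and glucose metabolism, 26.1% of cholesterol synthesis and 23.1% of fatty acid synthesis genes were called. The shares were 21.7% of fatty acid oxidation and PPAR targets and 22.2% of glycolysis genes, beside 13.5% of all genes tested. Of 23 cholesterol synthesis genes 5 rose and 1 fell. Dhcr7, the last enzyme of the pathway, rose by 0.6 ± 0.08 (adjusted p = 0.00104) with arms apart, at 46.1 to 78.7 CPM untreated and 78.8 to 118 CPM treated, while Insig1, which holds the pathway back, fell by 0.47 ± 0.06. The rises numbered 3 without day 20 replicate 1, day 20 replicate 2, day 24 replicate 1 or day 28 with crotonic acid replicate 2, 8 without day 28 replicate 1, 2 without day 24 and 3 without the replicate number in the model. Of 13 fatty acid synthesis genes 3 rose, led by Acacb, an acetyl-CoA carboxylase gene, at 0.67 ± 0.1, and 1 of them passed without the replicate number. Of 23 genes of fatty acid oxidation and PPAR targets 4 rose and 1 fell: the lipid droplet gene Plin2 rose by 0.44 ± 0.08 and Acadm, which oxidises medium-chain fatty acids, by 0.25 ± 0.05, while Fabp3 fell by 0.47 ± 0.08 and Cpt1a did not pass (log2 0.15 ± 0.05, adjusted p = 0.0632). None of these passed without the replicate number, 2 rose without day 24, 7 without day 28 replicate 1 and 8 without day 28. The glucose transporter gene Slc2a1 fell by 0.65 ± 0.08 and Slc2a3 by 0.37 ± 0.08 in a glycolysis list with 2 of 18 higher and 2 lower; neither fall passed without the replicate number, and that of Slc2a3 was lost without day 20 replicate 2. The glycolysis rises numbered 5 without day 28 replicate 1, 0 without day 20, 1 without day 24 and 4 without day 28.

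Pluripotency genes showed no common direction. Of 24 naive pluripotency genes 3 rose and 3 fell, 25% beside 13.5% of all genes tested, and the median was 0.01. Pou5f1 stood at 0.25 and 0.0963 CPM in untreated libraries of day 20, 2.38 and 1.77 at day 24 and 15.5 and 10.2 at day 28. With the acid it stood at 0.41 and 0, 5 and 4.56, and 22.6 and 19 CPM. It was higher with the acid in 5 of 6 pairs but did not pass (log2 0.73 ± 0.32, adjusted p = 0.171); without both libraries that held liver transcripts it passed. Nanog, at 0.541 to 1.3 CPM untreated and 0.555 to 1.26 CPM treated, and Dppa5a, at 10.6 to 228 and 9.48 to 221 CPM, did not pass. Sox2 fell by 0.39 ± 0.1 in 6 of 6 pairs (adjusted p = 0.0231), a call lost without any of 5 single libraries, and Nr5a2 fell by 0.82 ± 0.14. Fbxo15 fell by 0.48 ± 0.13. The rises were Utf1 by 1.27 ± 0.29 (adjusted p = 0.0169), Tbx3 by 0.4 ± 0.07 and Lin28a by 0.39 ± 0.11. The call of Utf1 was lost without some single libraries. The rises and falls were 0 and 0 without the replicate number in the model and without day 24. Of single libraries, 1 rose without day 20 replicate 2 and 1 fell without day 20 replicate 1, day 24 replicate 2 or day 24 with crotonic acid replicate 1; 1 fell without day 20 and 5 without day 28.

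Genes of the 2-cell embryo were at low levels, near-identical copies make single members uncertain, and 1 of 20 tested rose. All 20 lay above 0, with a median log2 fold change of 1.64. The summed level of the list was 0 over a median of 1.2 to 29.4 CPM untreated and 0.184 over 5.67 to 103 CPM treated. For many members the averaged test could call nothing. Tcstv1, for instance, had a log2 fold change of 2.24 with a standard error of 5544.11. A missing call there says nothing about a change. None of the 20 passed without the replicate number in the model or without day 24, whereas 2 rose in DESeq2 and 10 rose without day 20. Without day 28 the filter on low counts left 0 members to test, so that fit says nothing about them. Zscan4e, the only member called, was at 0 CPM in 3 of 4 libraries of day 20, 0 and 0.0492 untreated and 0.167 and 0.161 treated at day 24, and 1.38 and 1.04 untreated and 6.73 and 4.7 treated at day 28. Its adjusted p was 0.0499, the call was lost without any of 9 single libraries, and no fold is given against libraries at 0. None of 11 telomerase genes passed in edgeR or in DESeq2, and 1 had an unadjusted p under 0.05. Tert, the catalytic subunit, was at 3.51 to 6.36 CPM untreated and 4.88 to 9.45 CPM treated (log2 0.41 ± 0.13, adjusted p = 0.0615). Of 11 shelterin and capping genes Tinf2 and Pot1a fell by 0.22 ± 0.05 and 0.22 ± 0.06, of 19 homologous recombination genes Xrcc2 fell by 0.27 ± 0.08, and each of these calls was lost without at least 8 single libraries. Without both libraries that held liver transcripts no shelterin gene passed. Of 23 germline genes, Rec8, a meiotic cohesin gene, rose by 0.33 ± 0.06, a call lost without the replicate number in the model, without day 24 and with 14 libraries in the fit. The called shares were 18.2% of shelterin and capping, 5.26% of homologous recombination and 4.35% of germline genes, beside 13.5% of all genes tested. The germline list had 4 rises without day 20 with crotonic acid replicate 2, 2 without day 20 replicate 1, day 24 replicate 1, day 24 with crotonic acid replicate 2, day 28 replicate 2 or day 28 with crotonic acid replicate 1, 2 without both libraries that held liver transcripts, 5 without day 20 and 3 in DESeq2. None of 21 interferon response genes passed in edgeR or in DESeq2, and 1 had an unadjusted p under 0.05; 12 rose without day 28 replicate 1, 3 fell without day 28 replicate 2 and 2 rose without day 28.

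Proliferation genes lay slightly lower: 6 of 24 fell and 23 of 24 were below 0, with a median of -0.13. Of all genes tested 5.77% fell and 47.2% were above 0. Ccnb1, the mitotic cyclin, fell by 0.25 ± 0.06, from 123 to 161 CPM to 97.6 to 124 CPM. None of these falls held in every fit that left out a library, and none passed without the replicate number, without day 20 or without day 24; 3 passed without both libraries that held liver transcripts. The falls numbered 0 without day 20 replicate 2, day 20 with crotonic acid replicate 1, day 24 replicate 2, day 24 with crotonic acid replicate 2 or day 28 with crotonic acid replicate 2. They numbered 2 without day 20 replicate 1 or day 24 replicate 1, 3 without day 20 with crotonic acid replicate 2 and 1 without day 24 with crotonic acid replicate 1. Of 20 p53 targets 6 rose and none fell, against 7.71% of all genes that rose. The rises included the death-promoting Pmaip1 by 0.56 ± 0.07, Phlda3 by 0.38 ± 0.08 and Cdkn1a, a cell cycle inhibitor, by 0.26 ± 0.06. None passed without the replicate number; 3 rose without day 20 replicate 1 or day 24 replicate 2, 10 without day 28 replicate 2, and 2 without day 20 or without day 24. The call of Cdkn1a was lost without day 20 replicate 1 or day 24 replicate 2.

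Among mesenchymal genes, 4 of 25 rose and 4 fell, 32% beside 13.5% of all genes tested. Thy1, a surface marker of fibroblasts and neurons, rose 2.14-fold (log2 1.1 ± 0.08, adjusted p = 4.03e-05), from 30.2 over a median of 61.7 to 169 CPM untreated to 84.2 over 138 to 284 CPM treated, and the factor Twist1 rose by 0.7 ± 0.1. Postn, the matrix protein periostin, fell by 0.63 ± 0.11 with arms apart, and Loxl2, a collagen cross-linker, by 0.51 ± 0.06. These 4 passed without the replicate number in the model, where 2 rose and 2 fell; 2 rose without day 20 replicate 1, day 20 replicate 2, day 20 with crotonic acid replicate 1, day 24 replicate 2, day 24 with crotonic acid replicate 1, day 28 with crotonic acid replicate 2, day 20 or day 24. The falls were 2 without day 20 with crotonic acid replicate 2, day 24 replicate 2 or day 28 with crotonic acid replicate 1, 2 without both libraries that held liver transcripts, and 1 without day 24. Col1a1 did not pass (log2 -0.13 ± 0.19, adjusted p = 0.727).

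Markers of other cell types were read beside these results. Of the macrophage, endothelial and hepatocyte genes tested, 25%, 41.7% and 25% were called, beside 13.5% of all genes tested. Of 8 tested macrophage genes Lyz2 and Adgre1 rose by 1 ± 0.23 and 0.8 ± 0.22, calls lost without any of 3 and 7 single libraries; 1 macrophage gene passed without both libraries that held liver transcripts. The summed level of 16 macrophage genes was 31.1 to 48.2 CPM untreated and 38.1 to 69.9 CPM treated. Of 12 endothelial genes 2 rose and 3 fell, the receptor gene Tie1 rising by 1.64 ± 0.21 from 0.292 to 2.06 CPM to 0.46 to 8.8 CPM and its relative Tek falling by 0.74 ± 0.09; the summed level was 113 to 161 CPM untreated and 97.7 to 142 CPM treated. The falls numbered 1 without day 20 replicate 1, day 24 replicate 2, day 28 with crotonic acid replicate 2, day 20 or day 24. Of 20 hepatocyte genes 4 rose and 1 fell, and their summed level was 152 to 590 CPM untreated and 98.6 to 472 CPM treated. Only 11 of the 20 passed the filter on low counts without both libraries that held liver transcripts. The rises were 7 without day 28 with crotonic acid replicate 2, 1 without day 24 and 2 without both libraries that held liver transcripts, where 2 fell. The part of these cell types in the results was not tested.

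**Figure D5:**
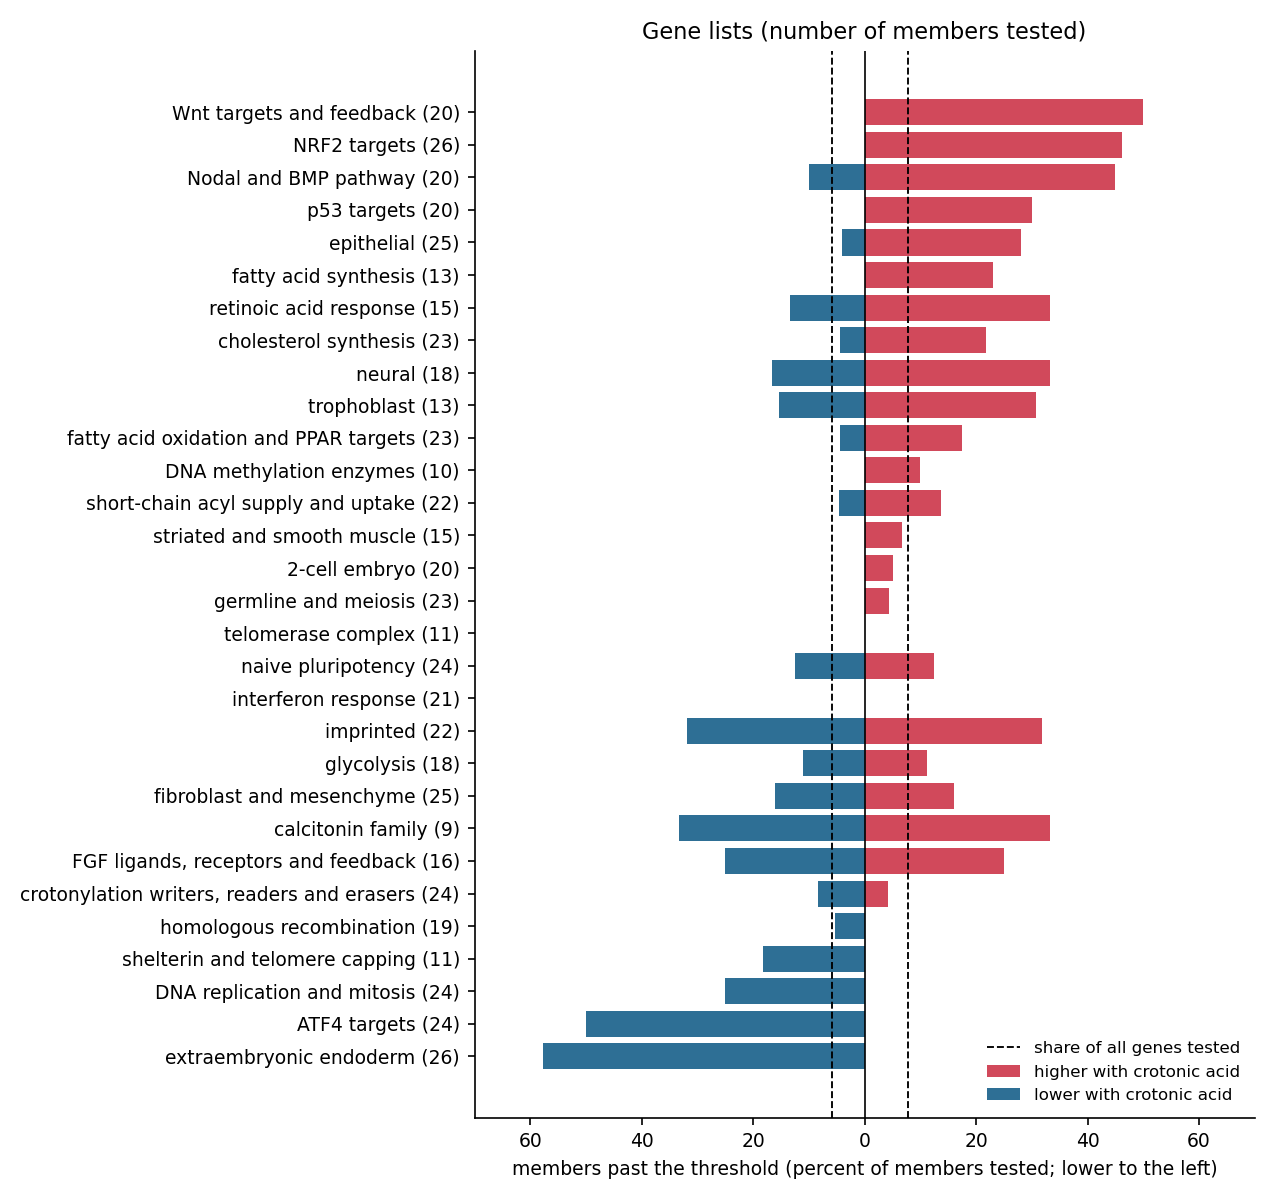
For each of 30 gene lists, with the number of tested members in brackets, bars show the percent of members that rose (red, right) or fell (blue, left) with crotonic acid, and dashed lines the percent among all genes tested, 7.71% and 5.77%. Wnt and NRF2 lists lie at the top with rises and no falls, and extraembryonic endoderm and ATF4 lists at the bottom with falls and no rises.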

How the data were processed

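Per the labels' protocols, total RNA came from a Qiagen mini kit and was turned into libraries with NEBNext Ultra reagents. The aligner, counter, annotation, genome build and strand setting were not given in the sources used here. Read counts per Ensembl gene were deposited by the authors in 1 table and FPKM values, scaled by them, in another. In these, 1 of 20 sample columns matched no label and was left unused. Of 47643 genes 419 had no symbol, and 50 of those were among the genes tested.

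Counts of 12 libraries (17475848 to 24015100 reads) were fitted in edgeR 4.0.16 under R 4.3.3 with the quasi-likelihood F test, 2-sided. Genes were kept by filterByExpr with a minimum count of 10 and libraries scaled by TMM. The model held 6 groups of day and treatment and the replicate number, and the contrast was the mean of 3 within-day differences. The threshold was a Benjamini-Hochberg adjusted p under 0.05 over all 17178 genes tested. The biological coefficient of variation was 11.2% with 5 residual degrees of freedom. A fold is 2 to the power of the fitted log2 fold change. Replicates differed by far more than counting, with a chi-squared per degree of freedom of 21.4 to 50.9.

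Whether replicate numbers pair libraries was checked first: for all 15 pairs of groups, same-numbered libraries departed from their group means together, with correlations of 0.261 to 0.588. The pairing thus comes from the data, since the labels give only the number.

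Named genes were the 15 largest rises and 15 largest falls among called genes with a symbol, at least 5 CPM in the higher arm and the same sign in all 6 pairs, up to 4 called members of each of 35 gene lists with the smallest p, and a fixed set of genes; not all are named, and a few values are not reported here. Other members of the lists, and Cyp1b1, Tiparp, Kazald1, Bhmt and Trpv genes, were added after their values were seen. The samples, members and lists were chosen with earlier results of these data known, so they are no independent support for a direction.

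Alternatives were RLE factors, total counts, no filter, DESeq2 1.42.0, limma 3.58.1 with voom and on log2(FPKM + 1) and log2(FPKM + 0.1) with a mean FPKM of at least 1 and without that filter, other forms of the replicate block, 14 libraries with day 16, a test against a 1.5-fold change, and fits without each library, each day or both libraries with liver transcripts. Where 1 library of a group was left out, the remaining one was taken to vary as the other groups do. The script was tested on simulated data. Promoter windows came from RefSeq (GRCm38.p6) and were matched by symbol.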

Additional observations from a re-analysis of the deposited data

Results flagged for a closer look

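Among 236 named genes 4, and among all genes tested 3146, had both pairs higher with crotonic acid on 1 day and both pairs lower on another. None passed the averaged test or, after adjustment, edgeR's test of a difference between days. Asns, asparagine synthetase, had a log2 fold change of -0.34 at day 20 and of 0.38 at day 28 (unadjusted p of the difference between days 0.0191). Zfp42, a naive pluripotency marker, had -0.69 at day 20 and 0.54 at day 28 (unadjusted p 0.228). Tdh, threonine dehydrogenase, had 0.17 at day 24 and -0.21 at day 28 (unadjusted p 0.151), and Terf1, a telomere-binding protein gene, had -0.22 at day 20 and 0.12 at day 24 (unadjusted p 0.104). The adjusted p of the difference was 1 for each of the 4 genes.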

How the results depend on the processing

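Of 2317 called genes, none had the opposite sign in any alternative that measured it. All alternatives reused libraries that had called the genes, so this agreement is no independent support. Without the replicate block 245 genes rose and 142 fell. With days 20, 24 and 28 held out in turn, that model called 89, 5 and 22 genes on the remaining days. Of these genes 93.3%, 100% and 100% had the same direction on the held-out day. Fits with 14 libraries, which added day 16, gave 732 and 558. There 5 NRF2, 1 p53, 3 cholesterol, 2 mesenchymal, 2 retinoic acid, 2 hepatocyte, 1 endothelial and no macrophage, 2-cell or germline genes rose, and 7 ATF4, 2 mesenchymal, 1 naive pluripotency, 1 trophoblast, 1 glycolysis and no proliferation, shelterin or homologous recombination genes fell. Library totals in place of TMM factors gave no falling proliferation, shelterin or homologous recombination genes, and 1 telomerase, 2 crotonylation and 3 germline genes rose. Over all genes, a test against a 1.5-fold change gave 75 and 52, and limma on log2(FPKM + 1) with no filter 763 and 565, with 41 genes called for a difference between days. That difference gave 17 genes with no filter on low counts and 6 in DESeq2. Leaving out single libraries gave 743 to 1780 rises, 520 to 1359 falls and 0 to 24 genes with a difference between days. Without day 20, 598 rose and 480 fell, without day 24, 408 and 242, and without both libraries with liver transcripts 911 and 483. RLE factors, total counts, voom, FPKM with a filter and other forms of the replicate block moved neither count by over 1.5 times. Genes of few counts, such as Zscan4e, are limited by depth.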

Other observations

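Called genes lay beside each other more often than the share of all genes would give: of 1302 rising genes with a position, the next tested gene on the chromosome also rose for 204 (15.7%), beside 8.1% of all tested genes, and of 966 falling genes the next one also fell for 124 (12.8%), beside 6.01%. Neighbours can share reads where genes overlap, and this was not tested. These runs were looked for after the values were seen. One held the methyl transfer genes Bhmt, Bhmt2 and Dmgdh with Arsb on chromosome 13, where Bhmt2 rose by 0.75 ± 0.06 (18.7 to 33.2 CPM untreated, 23.8 to 63.9 CPM treated) and Dmgdh, dimethylglycine dehydrogenase, by 0.88 ± 0.07. Bhmt itself, a liver enzyme, rose by 2.49 ± 0.6 from 0.167 to 2.7 CPM to 0.164 to 12.1 CPM, and its call was lost without both libraries with liver transcripts, without any of 7 single libraries, without day 24, without the replicate number in the model and in limma-voom. Another held Qpct, Cdc42ep3, Rmdn2 and Cyp1b1 on chromosome 17, and Ecel1 and Prss56, both among the largest rises, are neighbours.

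Cation channels of the TRPV family, also singled out after their values were seen, went both ways. Trpv4, a channel opened by osmotic stretch, rose by 1.36 ± 0.12 from 3.06 over a median of 9.45 to 19.5 CPM untreated to 15 over 24.3 to 41 CPM treated. Trpv6, an epithelial calcium channel, rose by 1.3 ± 0.1 from 8.46 over 11.3 to 21.4 CPM to 16 over 32.8 to 49.5 CPM. Trpv1 and Trpv3 fell by 1.62 ± 0.2 and 0.88 ± 0.12, and Trpv3 had a log2 fold change of 0 at day 20, -1.05 at day 24 and -1.58 at day 28. Kazald1, an insulin-like growth factor binding protein relative, had a small p for its size: it rose by 1.39 ± 0.06 (adjusted p = 1.64e-06) from 7.82 over 20.7 to 46.9 CPM to 23.8 over 59.3 to 94.7 CPM, higher in 6 of 6 pairs.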
